A study of Homo sapiens with 18 samples.

Results

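The clustered histone genes examined here were 10 genes fixed by Ensembl ID, of 60666 IDs in the deposited tables. They were chosen as genes of the histone clusters, by a rule that sets no threshold on a value. The choice was made with earlier results of these data known, so the counts of members called below are descriptive. Other histone genes could not be matched to IDs here, so the 10 need not stand for all clustered histone genes. All 10 were present and tested in each of the 4 tables. By family they were 4 linker histone H1 genes, 2 H2A genes, 3 H2B genes and 1 H4 gene. The tables carry no gene symbols, so the older symbols that define the list are used beside the IDs.

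The study measured RNA by RIP-seq, in which RNA recovered with an immunoprecipitated protein is sequenced beside input RNA, in U373-MG, an established human glioblastoma line. The recorded protocol settings include crosslinking at 150 mJ per cm2 and 15 PCR cycles. Cells had been transduced with retrovirus carrying FLAG-tagged wild-type ADAR3 (ADAR3 WT), ADAR3 with a mutated R-domain (R-mutant), or an empty vector with an antibiotic resistance gene only (control). Each of these 3 genotypes had 3 input and 3 IP libraries, which gave 18 libraries in 6 groups. Both proteins were expressed from a vector rather than from the cells' own gene, and the labels do not say whether the lines were clones or pools. Nothing in the labels ties the replicates to separate cultures, so all errors below may reflect technical spread only. The defining markers of the cell line could not be checked, because IDs were not paired with symbols in the sources used here. As a check of the labels, ENSG00000185736, taken here as the ID of ADARB2 (the gene of ADAR3), had the largest rise of all tested genes in ADAR3 WT input over control input, with a log2 fold change of 10.09 and a standard error of 0.34 in the authors' deposited table. In the authors' deposited IP tables the same ID was lower in ADAR3 WT over control, at -3.01 ± 0.75 (adjusted p 0.00106 in the normal test described below), and in R-mutant over control, at -2.59 ± 0.79 (adjusted p 0.0129), the direction also found there for the histone genes. By the input fold, control cells held far less of this RNA than ADAR3 WT cells. For the histone genes no input change was called between ADAR3 WT and control. Both IP folds of ENSG00000185736 against control use this low control signal, and its bearing on them was not tested. For R-mutant over ADAR3 WT this ID was at 0.41 ± 0.27 and did not pass the test.

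Core histones H2A, H2B, H3 and H4 form the nucleosome, and linker histone H1 binds the DNA where it enters and leaves the nucleosome. The clustered genes are transcribed mainly in S phase, and their mRNAs usually end in a conserved stem-loop, bound by the protein SLBP, in place of a poly(A) tail. Some of these genes, among them HIST1H2BK, HIST2H2BE, HIST1H2BD, HIST1H2AC and HIST1H1C, are also known to give polyadenylated mRNAs. ADAR3 is a double-stranded RNA-binding protein of the ADAR family without known deaminase activity, and its R-domain, rich in arginine, is known to bind single-stranded RNA.

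In RefSeq (GRCh38.p14), each of the 10 older symbols matched 1 gene, 8 on chromosome 6 and 2 on chromosome 1. The H1 genes were HIST1H1C (H1-2, chr6:26055740-26056470, minus strand), HIST1H1E (H1-4, chr6:26156329-26157115, plus strand), HIST1H1D (H1-3, chr6:26234212-26234987, minus strand) and HIST1H1B (H1-5, chr6:27866792-27867588, minus strand). The H2A genes were HIST1H2AC (H2AC6, chr6:26124172-26124690, plus strand) and HIST2H2AC (H2AC20, chr1:149886918-149887411, plus strand). The H2B genes were HIST1H2BD (H2BC5, chr6:26158121-26171349, plus strand), HIST1H2BK (H2BC12, chr6:27138293-27146858, minus strand) and HIST2H2BE (H2BC21, chr1:149884459-149886682, minus strand). The H4 gene was HIST1H4C (H4C3, chr6:26103933-26104337). Annotated spans ran from 405 bases for HIST1H4C to 13229 bases for HIST1H2BD. Histone genes of 1 family have very similar coding sequences, and how reads that fit several copies were counted is not given in the sources used here, so single-gene values are uncertain to that extent.

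RefSeq promoter sequences were matched for 9 of the 10 genes, and 4 of them are shown as examples that carry elements searched for here. HIST1H2BK and HIST1H2BD had 2 promoters each, of which only the first listed was searched. Each run holds the 250 bases before the annotated start, read 5′ to 3′ on the gene's strand. Capitals mark 4 searched elements on both strands: CCAAT, the TATA element TATAAA, the octamer ATTTGCAT of H2A and H2B genes, and the AAACACA element of H1 genes. Neighbouring matches can overlap. The elements were chosen with the members' promoters in view.
HIST1H1E, chr6:26156079-26156328, plus strand: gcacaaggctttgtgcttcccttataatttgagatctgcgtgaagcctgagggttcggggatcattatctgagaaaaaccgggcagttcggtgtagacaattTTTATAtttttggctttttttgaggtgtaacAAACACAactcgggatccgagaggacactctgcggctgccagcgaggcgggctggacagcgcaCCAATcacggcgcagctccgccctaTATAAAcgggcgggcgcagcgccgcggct
HIST1H1B, chr6:27867589-27867838, minus strand: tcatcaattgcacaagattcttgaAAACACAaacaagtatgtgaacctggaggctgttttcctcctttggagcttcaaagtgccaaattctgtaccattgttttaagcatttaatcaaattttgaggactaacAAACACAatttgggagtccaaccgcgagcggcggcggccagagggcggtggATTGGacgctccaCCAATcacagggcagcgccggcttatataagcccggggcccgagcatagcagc
HIST1H2BK, chr6:27146859-27147108, minus strand: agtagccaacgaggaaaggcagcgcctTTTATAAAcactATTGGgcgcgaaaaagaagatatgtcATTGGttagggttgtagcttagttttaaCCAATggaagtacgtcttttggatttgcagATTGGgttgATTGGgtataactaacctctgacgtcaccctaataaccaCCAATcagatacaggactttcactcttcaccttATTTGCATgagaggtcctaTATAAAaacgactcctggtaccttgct
HIST2H2BE, chr1:149886683-149886932, minus strand: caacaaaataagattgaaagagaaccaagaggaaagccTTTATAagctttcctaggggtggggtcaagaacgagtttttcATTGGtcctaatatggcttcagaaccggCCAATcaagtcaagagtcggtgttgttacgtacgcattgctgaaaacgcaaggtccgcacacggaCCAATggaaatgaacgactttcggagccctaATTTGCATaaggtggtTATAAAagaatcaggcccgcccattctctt

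All 9 matched promoters held CCAAT, which was present in 33.0% of 27305 RefSeq promoters of the same length. TATAAA was found in 7 of the 9, against 11.1% of all promoters. AAACACA was found in 4 of the 9, all of them H1 genes, against 4.95% of all promoters. ATTTGCAT was found in 4 of the 9, namely HIST1H2AC, HIST2H2AC, HIST1H2BK and HIST2H2BE, against 1.66% of all promoters. HIST1H2BD, also an H2B gene, held no match to it. HIST2H2AC and HIST2H2BE are transcribed away from each other and share 235 of the 250 bases, so the HIST2H2BE sequence also shows most of the HIST2H2AC promoter on its other strand. A match is a run of letters, and RIP-seq does not measure promoter activity.

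IP enrichment was compared between genotypes as a log2 fold change, read here as IP over input of the first-named genotype divided by the same ratio of the second. A negative value means that the IP over input ratio of an RNA, relative to the other RNAs, was lower in the first-named genotype. Depletion below means such a lower ratio, not a lower amount of the RNA in the IP itself. All single-gene fold changes and standard errors are those of the authors' deposited tables, given as log2 fold change ± standard error. Values per library were not analysed here, since the names of the per-library columns match no label, so the spread over libraries and their overlap between groups are not given. Adjusted p-values come from a two-sided normal test of fold change over standard error, Benjamini-Hochberg adjusted over all tested genes, with 0.05 as the threshold.

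Every clustered histone mRNA examined was depleted in the FLAG IP of cells with ADAR3 WT relative to control cells. All 10 genes passed the test as lower and none as higher, where 8.14% of all 21121 tested genes were called lower. Depletion lay between 2.49-fold for HIST1H1E and 4.08-fold for HIST2H2AC, with a median log2 fold change of -1.61, against 0.01 over all tested genes. Counts were normalized between libraries, so lower enrichment is relative to the other RNAs. The call also depends on how well a gene was measured. Among the 4671 tested genes with a mean normalized count in the range of the members, 14.1% were called lower and the median log2 fold change was -0.05.

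The linker histone genes had log2 fold changes from -1.66 to -1.32 in ADAR3 WT over control. HIST1H1D (ENSG00000124575) was at -1.66 ± 0.22 (adjusted p 4.47e-12), which places its IP enrichment in ADAR3 WT at 31.7% of that in control. HIST1H1C (ENSG00000187837) was at -1.57 ± 0.26 (adjusted p 2.51e-07), and HIST1H1B (ENSG00000184357) was at -1.50 ± 0.25 (adjusted p 1.76e-07). Those 3 genes thus sat close together, within less than 1 standard error of each other. HIST1H1E (ENSG00000168298) had the smallest depletion of all members, at -1.32 ± 0.34 (adjusted p 0.0021), and its 95% interval ran from -1.99 to -0.64.

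Among the core histone genes, the H2A pair lay at opposite ends. HIST2H2AC (ENSG00000184260), from the smaller cluster on chromosome 1, had the strongest depletion of all members, at -2.03 ± 0.21 (adjusted p 1.33e-18), or 24.5% of the control enrichment. HIST1H2AC (ENSG00000180573), from the large cluster on chromosome 6, was at -1.38 ± 0.29 (adjusted p 5.26e-05), or 38.3%. Their 95% intervals, -2.44 to -1.61 and -1.95 to -0.82, overlapped, and the difference between the genes was not tested because members share the same libraries. The H4 gene HIST1H4C (ENSG00000197061) came close to HIST2H2AC, at -1.96 ± 0.22 (adjusted p 1.37e-16).

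The H2B genes lay between these values. HIST1H2BK (ENSG00000197903) was at -1.80 ± 0.25 (adjusted p 1.51e-10) and HIST2H2BE (ENSG00000184678) at -1.79 ± 0.26 (adjusted p 7.01e-10). HIST1H2BD (ENSG00000158373) was at -1.54 ± 0.27 (adjusted p 8.22e-07). Of the genes named above as also giving polyadenylated mRNAs, HIST1H2AC lay near the weak end. HIST1H2BD and HIST1H1C (-1.57 ± 0.26) were less depleted than the members' median of -1.61, and HIST1H2BK and HIST2H2BE more. A relation of depletion to the mRNA end was not tested. For 8 of the 10 members the whole 95% interval lay beyond a 2-fold depletion, and the exceptions were HIST1H1E and HIST1H2AC. The same held for 241 of the 21121 tested genes and for 93 of the 4671 in the members' range of mean count. Ranked from the most depleted, the members' folds fell between 2.06% and 5.86% of the way through all tested genes. The calls for HIST1H1E (adjusted p 0.255) and HIST1H2AC (adjusted p 0.0847) were lost when the statistic was rescaled to its spread over all tested genes, an alternative chosen after seeing the data. The other 8 members passed it, as did 1.48% of all tested genes in the same direction.

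**Figure D1:**
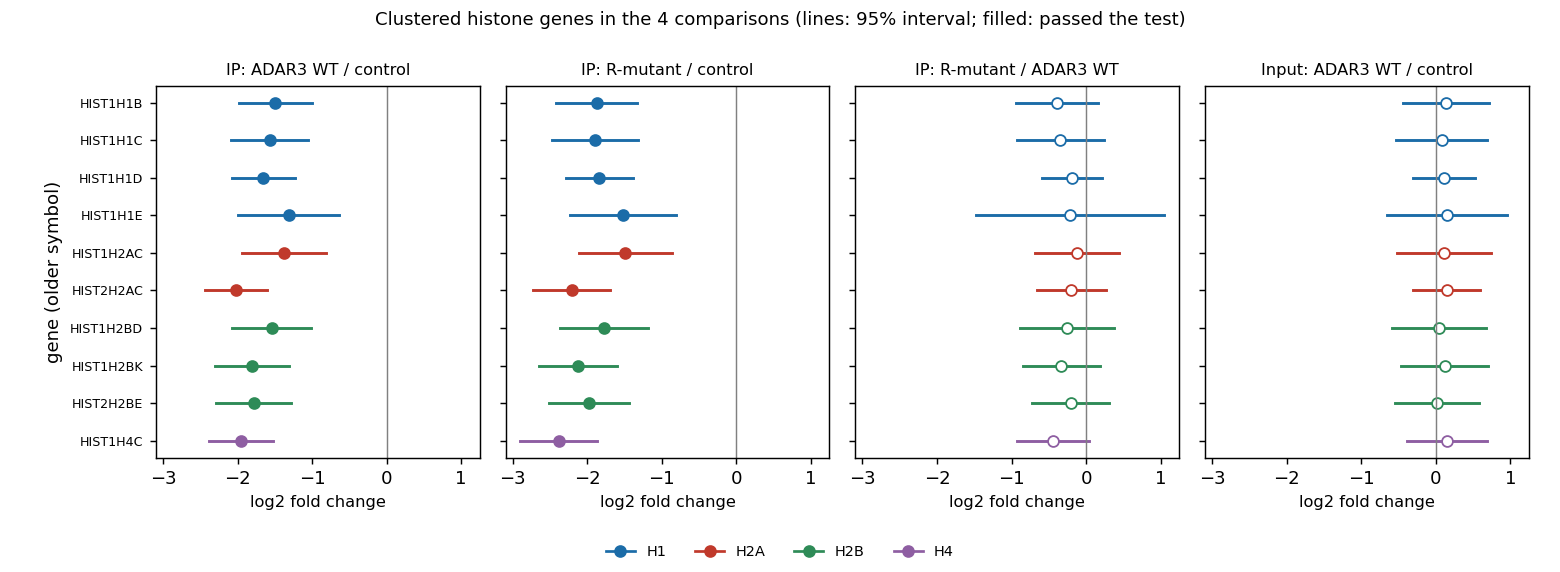
Log2 fold change of each clustered histone gene (rows, older symbols, coloured by family) in the 4 deposited comparisons. Points are the deposited values, lines their 95% intervals, and filled points passed the test at an adjusted p under 0.05. All 10 points lie between -2.39 and -1.32 in both IP comparisons against control, between -0.44 and -0.12 for R-mutant over ADAR3 WT, and between 0.02 and 0.16 in input.

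The R-mutant protein showed depletion of the same 10 mRNAs against control. All 10 genes passed the test as lower, where 7.95% of 21120 tested genes were called lower, and 13.9% of the 4715 with a mean count in the range of the members. The median log2 fold change of the members was -1.89, against 0.03 over all tested genes. This comparison shares its control libraries with that of ADAR3 WT, so the pair of results is not independent. The values per gene are therefore given side by side.

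HIST1H4C had the strongest depletion with the R-mutant, at -2.39 ± 0.26 (adjusted p 6.16e-17), or 19.1% of the control enrichment. HIST2H2AC followed at -2.21 ± 0.27 (adjusted p 3.51e-14) and HIST1H2BK at -2.12 ± 0.27 (adjusted p 9.65e-13). These 3 genes were also the most depleted with ADAR3 WT, with HIST2H2AC ahead of HIST1H4C there. HIST2H2BE was at -1.98 ± 0.28 (adjusted p 1.33e-10) and HIST1H2BD at -1.78 ± 0.30 (adjusted p 3.50e-07).

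The H1 genes again stood close together, apart from HIST1H1E. HIST1H1C was at -1.90 ± 0.29 (adjusted p 1.19e-08), HIST1H1B at -1.87 ± 0.28 (adjusted p 2.75e-09) and HIST1H1D at -1.84 ± 0.23 (adjusted p 4.73e-13). HIST1H1E was at -1.52 ± 0.36 (adjusted p 0.000734), and HIST1H2AC had the smallest depletion at -1.49 ± 0.32 (adjusted p 9.74e-05). These 2 genes were the only members whose 95% interval reached above a log2 fold change of -1, as they had been with ADAR3 WT. Intervals wholly below -1 were found for 288 of the 21120 tested genes and for 108 of the 4715 in the members' range of mean count. Under the rescaled statistic their adjusted p-values were 0.201 and 0.11 here, and the other 8 members passed, as did 1.3% of all tested genes in the same direction.

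Whether the mutated R-domain altered the recovery of histone mRNAs was addressed by setting R-mutant directly against ADAR3 WT. None of the 10 genes passed the test, where 0.00428% of 23385 tested genes were called lower. Fold over standard error had a robust spread of 0.605 over all tested genes, narrower than the test assumes, so passing was rare for any gene. An unadjusted p under 0.05 in the normal test was found for 146 of the 23385. It was found for 23 of the 5244 in the members' range of mean count, and for none of the 10. The log2 fold changes ran from -0.44 to -0.12 with a median of -0.23, against -0.02 over all tested genes, and all 10 lay below 0, as did 53.9% of all tested genes. The members share their libraries, so the common sign of 10 genes does not count as 10 observations.

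HIST1H4C had the lowest value, at -0.44 ± 0.25, with an unadjusted p of 0.0752 in the two-sided normal test (n = 3 libraries per group, test across all genes; adjusted p 1.00). HIST1H1B was at -0.39 ± 0.28, HIST1H1C at -0.34 ± 0.30 and HIST1H2BK at -0.33 ± 0.26. The remaining core histone genes were nearer to 0, at -0.25 ± 0.32 for HIST1H2BD, -0.21 ± 0.26 for HIST2H2BE, -0.20 ± 0.23 for HIST2H2AC and -0.12 ± 0.29 for HIST1H2AC. HIST1H1D was at -0.19 ± 0.20 and HIST1H1E at -0.22 ± 0.65. For 9 of the 10 genes the 95% interval lay within a 2-fold difference in either direction, as it did for 12915 of the 23385 tested genes and for 5203 of the 5244 in the members' range of mean count, so this count is near that of other genes with such means. For HIST1H1E the interval ran from -1.48 to 1.05, and so passed a 2-fold difference in both directions. What size of difference the test could have called was not examined for any of the 10 genes. The widest shift that the intervals of the other 9 allow is -0.94, for HIST1H1B.

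By the adjusted p in the authors' deposited table, all 10 members passed in R-mutant over ADAR3 WT, as did 51.1% of all tested genes. That p belongs to a likelihood ratio test with 7 degrees of freedom, as judged from its p-values, so it covers more terms than the fold change beside it. The authors' count is therefore not a count of genes that differ between R-mutant and ADAR3 WT.

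The level of these mRNAs in input RNA was compared between ADAR3 WT and control, since a change there would enter the ratio of IP over input. None of the 10 genes passed the test, where 0.289% of 20411 tested genes were called in either direction. Fold over standard error again spread less than the test assumes, with a robust spread of 0.657 over all tested genes. An unadjusted p under 0.05 in the normal test was found for 595 of the 20411. It was found for 44 of the 3601 in the members' range of mean count, and for none of the 10. Log2 fold changes ran from 0.02 ± 0.29 for HIST2H2BE to 0.16 ± 0.41 for HIST1H1E, with a median of 0.12, against 0.03 over all tested genes and 0.06 over the 3601 tested genes in the members' range of mean count. HIST1H4C was at 0.15 ± 0.27 and HIST2H2AC, the gene most depleted in the ADAR3 WT IP, at 0.15 ± 0.23. HIST1H1B was at 0.14 ± 0.29, HIST1H2BK at 0.12 ± 0.30, HIST1H1D at 0.11 ± 0.21 and HIST1H2AC at 0.11 ± 0.32. HIST1H1C was at 0.08 ± 0.31 and HIST1H2BD at 0.05 ± 0.32. The 95% interval of every member lay within a 2-fold difference in either direction, as it did for 13637 of the 20411 tested genes and for 3554 of the 3601 in the members' range of mean count, again near the share of other genes with such means. Values above 0 in all 10 are not a stable feature, since centring on the median of all tested genes placed HIST2H2BE at -0.01. Input RNA of R-mutant cells was not analysed here. No input change of the members was called between ADAR3 WT and control. In bulk RNA, a change in the share of cells in S phase and a change in histone mRNA per cell could not be told apart.

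The deposited standard errors of the members were mostly wide for genes of their mean count. In the input table they lay between the 52.9 percentile (HIST1H1D) and the 99.5 percentile (HIST1H1E) of genes in the members' range of mean count. For R-mutant over ADAR3 WT they lay between the 64.3 percentile (HIST1H1D) and the 99.8 percentile (HIST1H1E), whereas for ADAR3 WT over control they spread from the 37.1 percentile (HIST2H2AC) to the 99.3 percentile (HIST1H1E). HIST1H1E had the widest error of the members in each of the 4 tables and was at the 99.3 percentile or higher in each, with a standard error of 0.65 in R-mutant over ADAR3 WT, against 0.20 to 0.32 for the others. Which libraries carry this spread was not analysed here.

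The mean normalized counts of the members were low in the IP tables relative to the input table. HIST1H4C had a mean of 2772 in the ADAR3 WT over control table, of 2412 in the R-mutant over control table and of 2500 in the R-mutant over ADAR3 WT table, against 4891 in the input table. For HIST1H1B the means were 8800, 7491 and 7837, against 15046 in the input table. The tables were normalized separately and the libraries behind each mean are not stated, so these ratios are read only against those of other genes. The ratio to the input mean ran from 0.55 (HIST1H1D) to 0.638 (HIST1H2BD) in the table of ADAR3 WT over control, where the median was 0.848 over 13661 genes whose input mean was 50 or more. It ran from 0.49 to 0.551 against a median of 0.783 for R-mutant over control, and from 0.511 to 0.554 against 0.892 for R-mutant over ADAR3 WT. All 10 members lay in the lowest 5% of these genes in each of the 3 tables, and in the lowest 2% for R-mutant over ADAR3 WT, the comparison without the control genotype. Where IP libraries enter a mean, lower IP enrichment in a genotype also lowers that mean. The ratios are therefore not separate evidence beside the folds above. No test accompanies this description.

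**Figure D2:**
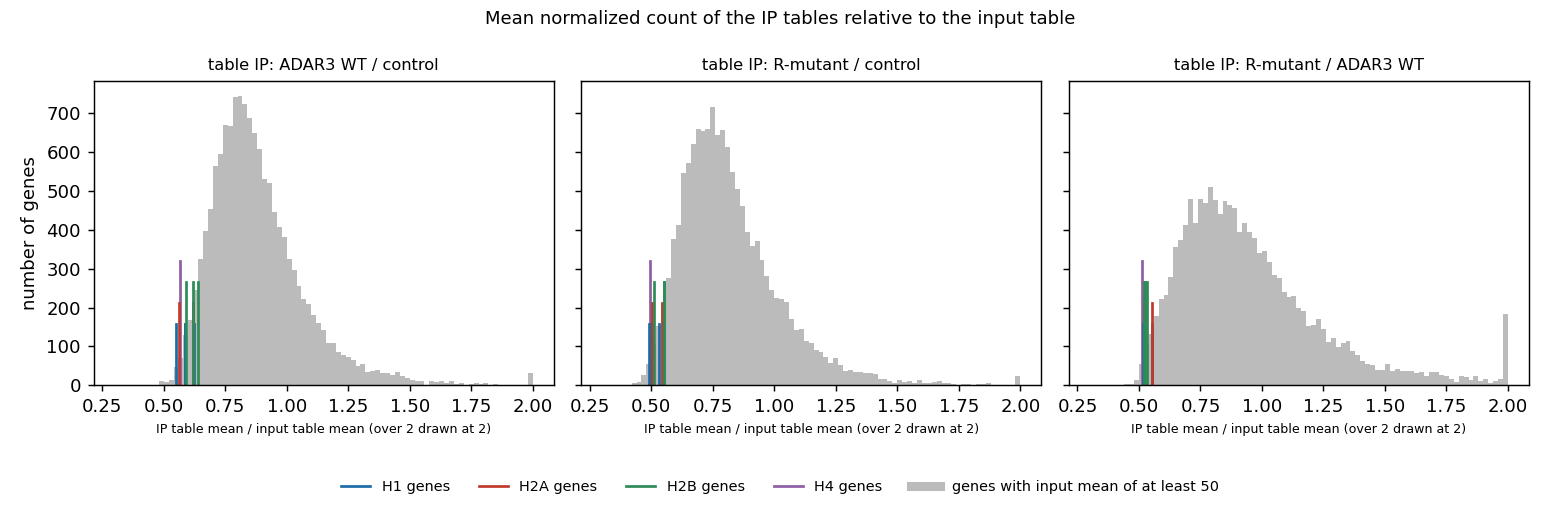
Number of genes (vertical axis) by the ratio of mean normalized count in each IP table to that in the input table (horizontal axis), for 13661 genes whose input mean was 50 or more. Ratios over 2 are drawn at 2. Coloured ticks mark the clustered histone genes, which lie between 0.49 and 0.638, at the left edge of each histogram.

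The genes whose 4 log2 fold changes were nearest to the medians of the members were sought outside the 10, among 13284 genes whose mean was 50 or more in every table. They were ENSG00000273802, ENSG00000196747 and ENSG00000174276, at Euclidean distances of 0.0876, 0.0914 and 0.118. For ADAR3 WT over control ENSG00000273802 was at -1.66 ± 0.24, for R-mutant over control at -1.91 ± 0.29, for R-mutant over ADAR3 WT at -0.26 ± 0.28, and for input at 0.06 ± 0.28. The members themselves lay at distances from 0.0755 (HIST1H1D) to 0.644 (HIST1H4C), so these 3 genes were nearer to the typical member than all members but HIST1H1D. Standard errors of the folds reached 0.58 for ENSG00000196747 (R-mutant over ADAR3 WT) and 0.46 for ENSG00000174276 (R-mutant over control). Such errors exceed the distances of the 3 genes, so the order by distance is a description only. No names were paired with these IDs here. Only the 10 members were left out of the search, so the 3 may include other clustered histone genes. They are not shown to lie outside that family.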

How the data were processed

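Per the submitters' processing notes, reads were handled with STAR 2.7.7a, featureCounts and DESeq2 on GRCh38. Neither the annotation nor the model formula is given in the sources used here. Per the file headers, the authors deposited for each comparison a mean signal (the mean of normalized counts), a log2 fold change and its standard error, a statistic (a score), and a p-value with its adjusted form. Depth per library is unknown. A further 6 per-library columns in the input table have names that match no label and were not used.

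Reading the IP folds as ratios of IP over input rests on the table names, not on the labels. For positive statistics, 100% of p-values in the 3 IP tables followed a chi-square law with 7 degrees of freedom (relative tolerance 0.01). In the input table the statistic equals fold over standard error.

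The normal test of fold over standard error ran on all genes with a deposited adjusted p. The members, tests and lists were chosen with earlier results of these data known. All members are named. The 3 most similar genes were those with the smallest Euclidean distance. Alternatives were another test, threshold, filter, fold minimum, centring and scale. The planned lists (other histone genes, histone mRNA processing, S phase, cell markers) could not be matched to IDs here. The tools were pandas 2.3.3, numpy 2.4.6, statsmodels 0.14.6, scipy 1.17.1 and matplotlib 3.10.9 under Python 3.11.15.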

Additional observations from a re-analysis of the deposited data

How the results depend on the processing

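All 10 genes were called lower in ADAR3 WT over control and in R-mutant over control under each planned setting of the fold change test that was run. These were an adjusted p under 0.01, a mean of at least 50, no filter, and a log2 fold change of 1 or more in size. Further settings were centring on the median of all tested genes and centring within groups by mean count. Calls as lower among all genes follow in that order. For ADAR3 WT over control they were 1112 of 21121, 1826 of 13617, 1457 of 37121, then 917, 1784 and 1555 of 21121. For R-mutant over control they were 1084 of 21120, 1788 of 13515, 1426 of 37120, then 1043, 1771 and 1565 of 21120. The authors' adjusted p also passed all 10 in both, as it did 9080 of 21121 and 8626 of 21120 tested genes in either direction. That p covers more terms than the fold and is no separate evidence that the members were lower. Centring within 5 groups by mean count moved the folds to between -1.98 and -1.27 for ADAR3 WT over control and to between -2.34 and -1.45 for R-mutant over control. Rescaling the statistic to its spread over all tested genes, chosen after seeing the data, left 8 of 10 in each, without HIST1H1E and HIST1H2AC. Over all tested genes it called 312 of 21121 lower for ADAR3 WT over control and 275 of 21120 for R-mutant over control. In R-mutant over ADAR3 WT, 10 members passed by the authors' adjusted p, as did 11947 of 23385 tested genes. That p covers more terms than this fold. Under each other setting 0 members passed, where the rescaled statistic called 78 of all tested genes. In input, 0 members passed under every setting run. Of the 20411 tested genes there, 59 passed the main test and 489 the rescaled statistic. No paired analysis was possible because the names of the per-library columns in the input table match no label, and no such columns of the IP libraries were analysed here. For the same reason leaving out a replicate, the replicate block, edgeR and a new DESeq2 fit were not run.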

Other observations

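The authors' deposited tables gave high likelihood ratio statistics to many members in all 3 IP tables. In R-mutant over ADAR3 WT, where no member passed the test of the fold change, HIST1H1D had a statistic of 804 in the authors' deposited table, rank 27 from the highest of 23385 tested genes, and HIST2H2AC had 666, rank 54. HIST1H4C had 612, rank 71. HIST1H1E had the lowest statistic among the members there, at 46.8, rank 5991. In ADAR3 WT over control the authors' deposited table gave HIST2H2AC a statistic of 424, rank 20 of 21121, and HIST1H1E 94.6, rank 1120. The terms of that test are not stated in the sources used here.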
